A study of Mus musculus with 9 samples.

Results

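The nuclear-encoded subunits of the mitochondrial respiratory chain and of ATP synthase were followed in the large intestine of mice in which the RNA helicase DHX9 was silenced. Members were the genes whose Entrez Gene number gave a mouse symbol beginning with Ndufa, Ndufb, Ndufc, Ndufs, Ndufv, Uqcr, Atp5 or Cox4 to Cox8, or equal to Sdha, Sdhb, Sdhc or Sdhd, with 2 pseudogenes left out. This gave 85 of the 24011 genes named on the array, each read by 1 probe set. The level filter (a mean log2 level of at least 5.28 over all arrays) kept 81 of the 85, and Cox7b, Cox7b2, Cox8c and Atp5h fell under it. The pattern also took in 8 assembly factors, Ndufaf1 to Ndufaf8, which help to build complex I but are not part of the finished enzyme. Subunits encoded by mitochondrial DNA, and a few nuclear subunits such as Atp5g1, Atp5g2, Cox7c and Uqcrb, were not analysed here.

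Groups of 3 arrays each were compared, from mice carrying the DHX9.1271 short hairpin (DHX9-1271), the DHX9.837 short hairpin (DHX9-837) or the FLuc.1309 hairpin against firefly luciferase (control). Every mouse was on the C57BL/6 background and also carried rtTA, the doxycycline-dependent activator that switches the hairpin on. All groups, control included, drank doxycycline at 1 mg/ml with 5% sucrose for 14 days, starting at 4 weeks of age. The sources used here do not give the promoter that drives rtTA or the number of founder lines, and no group without doxycycline or without a hairpin was analysed here. The labels number the replicates without saying that each is its own animal. The p-values therefore reflect only how these samples spread, which may be technical. All values are log2 levels from Affymetrix Mouse Gene 2.0 ST arrays, and a difference of 1 on this scale is a ratio of 2. Levels of different genes come from different probes and were not compared with each other.

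The respiratory chain passes electrons from NADH through complex I, or from succinate through complex II, to ubiquinone, then through complex III and cytochrome c to oxygen at complex IV. Complexes I, III and IV pump protons across the inner mitochondrial membrane, and ATP synthase lets them back to make ATP. Complex I consists of core subunits, which hold the flavin, the iron-sulphur clusters and the quinone site, and of many accessory subunits packed around them. In the colon, mature absorptive cells depend on mitochondrial oxidation, with butyrate made by bacteria as a main fuel.

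The hairpin target was measured first. Dhx9 stood at 8.27, 8.22 and 8.18 on the DHX9-1271 arrays, at 8.19, 8.22 and 8.20 on the DHX9-837 arrays, and at 9.21, 9.18 and 9.32 on the control arrays. All 6 hairpin arrays lay below all 3 control arrays, with 49.2% of the control level left in the pooled contrast (log2 difference -1.02, SE 0.044, adjusted p 1.28e-05, limma with Benjamini-Hochberg adjustment over 16808 genes). The array medians lay between 6.24 and 6.28, and arrays of the same group correlated at 0.979 to 0.995 over genes, against 0.959 to 0.988 for arrays of different groups. No array stood apart from its group in these checks. Markers of colonic epithelium were bright in every group, with a mean over 12 genes of 11.15 to 11.21 in DHX9-1271, 11.01 to 11.06 in DHX9-837 and 11.17 to 11.24 in control.

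Ndufb2, an accessory subunit in the membrane arm of complex I, fell in both hairpin groups. It was the only one of the 34 tested complex I subunits that fell in the pooled contrast, although Ndufb11 joined it in several alternative settings. Of all genes tested 5.33% fell, so this count alone does not set the complex apart. The level of Ndufb2 was 7.04, 7.25 and 7.18 in DHX9-1271, 6.94, 7.05 and 7.08 in DHX9-837, and 8.52, 8.57 and 8.49 in control. The highest hairpin array was more than 1 log2 unit below the lowest control array. Against control, the log2 difference of Ndufb2 was -1.37 in DHX9-1271 (SE 0.064, adjusted p 4.69e-05) and -1.497 in DHX9-837 (SE 0.064, adjusted p 9.45e-06). In the pooled contrast, the mean of both hairpin groups minus control, the difference was -1.43 (SE 0.056, adjusted p 7.29e-06), which left 37.1% of the control level. DHX9-837 was lower than DHX9-1271 by a further step that did not pass the test (-0.13, SE 0.064, adjusted p 0.419). Exact permutation of the arrays (two-sided) gave a p of 0.0119 for the pooled contrast and 0.1 for each hairpin, in each case the smallest value that the number of arrays allows. In a hairpin contrast every gene whose groups do not overlap gets that 0.1. In DHX9-1271 these were 15.4% of all genes tested above control and 10% below. Ndufb2 was also singled out with earlier results of these data known, so the permutation adds no evidence beyond the separation of its levels.

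Among the 16808 genes tested, the fall of Ndufb2 ranked 18th in DHX9-1271, 15th in DHX9-837 and 13th in the pooled contrast. Among the 81 tested members it ranked first in all 3, and the next lowest member of the pooled contrast was Ndufb11, another membrane-arm subunit, at -0.29. Every other member moved by less than 0.5 in each hairpin contrast. Of the other 33 tested complex I subunits, 24 had a pooled difference above 0 and 9 below it, and 9 rose (27.3%, against 8.13% of all genes tested). Their median level was 9.15, 9.10 and 9.16 in DHX9-1271, 9.19, 9.21 and 9.21 in DHX9-837, and 9.01, 9.04 and 9.05 in control. Ndufb2 minus that median was -1.98 ± 0.126 in DHX9-1271, -2.17 ± 0.062 in DHX9-837 and -0.51 ± 0.051 in control (SD, n = 3 each). Relative to the rest of its complex, the shift was -1.47 in DHX9-1271 and -1.66 in DHX9-837 against control, given without a test. These gaps combine different probe sets, so only their change between groups can be read.

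**Figure D1:**
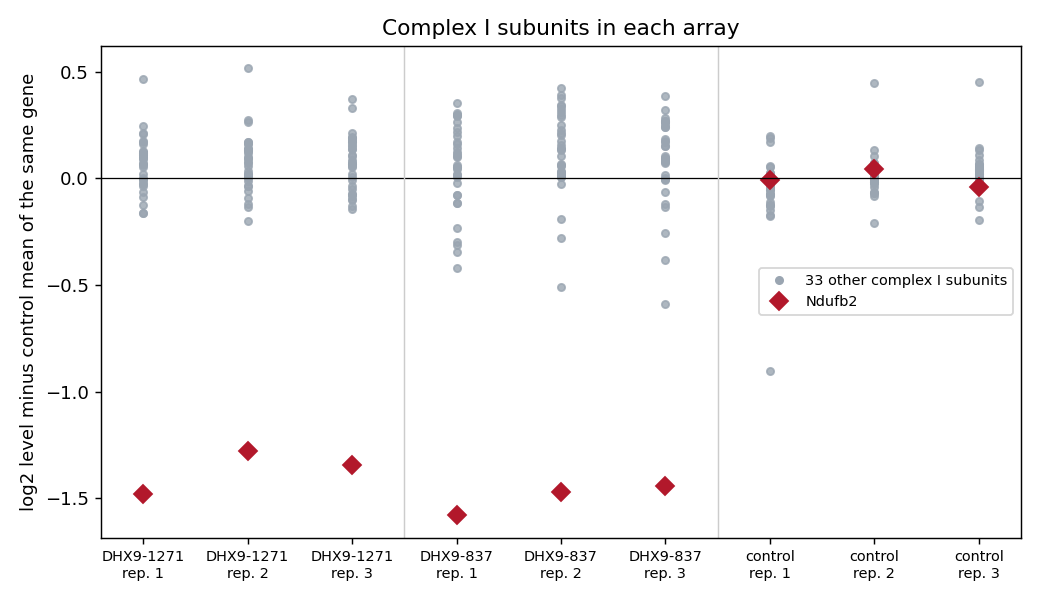
Level of each tested complex I subunit on each of the 9 arrays, as the log2 difference from its own control mean, with DHX9-1271 and DHX9-837 left of control. Diamonds show Ndufb2, which lies far below the 33 other subunits (points) on all 6 hairpin arrays and among them on the control arrays, and the 1 low control point is Ndufb3.

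None of the genes nearest to Ndufb2 was called. In chromosomal order the nearest protein-coding genes with a row are Mkrn1, Dennd2a and Adck2 on one side and Braf, Mrps33 and Tmem178b on the other, in the RefSeq gene table of GRCm38.p6. Their pooled log2 differences were -0.07, 0.06 and -0.14 for the first 3 and 0.14, -0.10 and -0.10 for the others, with adjusted p between 0.148 and 0.658. None was called in DHX9-1271 or DHX9-837 taken singly either. Adck2 and Braf flank Ndufb2 directly, with unadjusted p of 0.0533 and 0.0395 in the pooled contrast by limma. In DHX9-837 Adck2 was at -0.20 (unadjusted p 0.0207, adjusted p 0.0946), with all its arrays below control, as in 14.3% of all genes tested. Braf was at 0.14 there (unadjusted p 0.0631, adjusted p 0.194), with all its arrays above control, as in 17.1% of all genes tested.

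**Figure D2:**
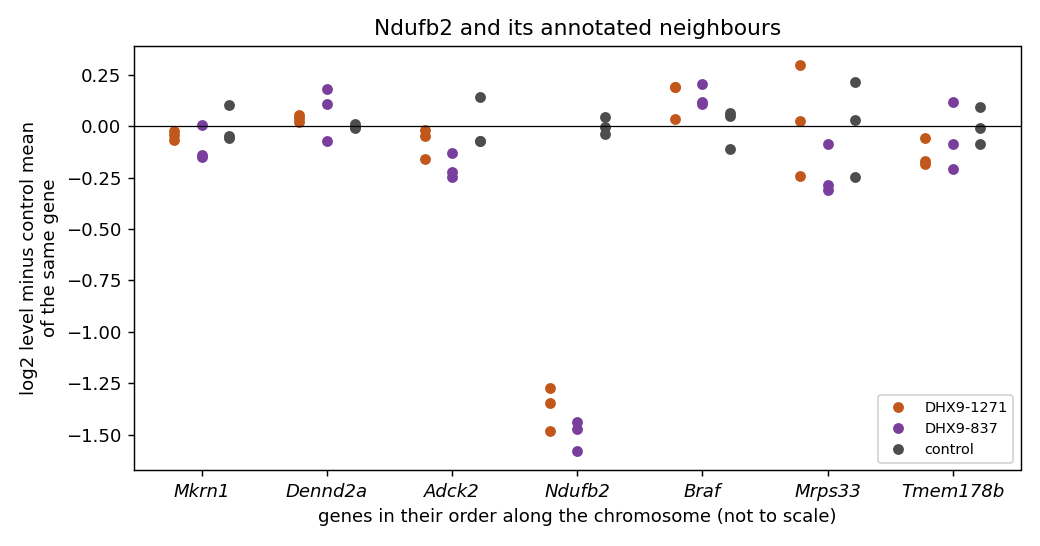
Log2 level of Ndufb2 and of 3 neighbouring genes on each side, in chromosomal order, for each array of DHX9-1271, DHX9-837 and control (points), as the difference from the gene's own control mean. The hairpin arrays of Ndufb2 lie well below those of the other 6 genes, which scatter around 0.

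Promoter windows were read for the members that RefSeq covers, 70 of 85. Each ran from 250 bases before to 50 bases after an annotated start on GRCm38.p6, which need not be the gene's outermost one. The windows of Ndufb2, the member that fell most, and of Ndufa10 and Uqcrc1, both of which rose, are shown because they hold letters that factors known to bind many metabolic genes recognise. Capitals mark the cAMP response element TGACGTCA and CCAAT in Ndufb2 (chr6:39592315-39592614, plus strand), TGACGTCA in Ndufa10 (chr1:92473709-92474008, minus strand) and the recognition letters of NRF1, a regulator of nuclear genes for mitochondrial proteins, in Uqcrc1 (chr9:108936398-108936697, plus strand).
Ndufb2: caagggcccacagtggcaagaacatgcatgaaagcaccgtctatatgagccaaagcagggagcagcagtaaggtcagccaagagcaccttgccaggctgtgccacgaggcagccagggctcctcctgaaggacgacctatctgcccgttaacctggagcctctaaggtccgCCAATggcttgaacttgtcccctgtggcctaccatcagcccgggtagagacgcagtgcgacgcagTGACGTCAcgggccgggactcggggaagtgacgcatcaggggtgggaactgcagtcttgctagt
Ndufa10: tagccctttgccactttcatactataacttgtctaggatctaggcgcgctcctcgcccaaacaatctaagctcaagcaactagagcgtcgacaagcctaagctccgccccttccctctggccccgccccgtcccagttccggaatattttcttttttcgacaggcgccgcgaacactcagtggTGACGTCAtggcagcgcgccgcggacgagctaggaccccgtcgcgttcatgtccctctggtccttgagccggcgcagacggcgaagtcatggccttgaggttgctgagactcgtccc
Uqcrc1: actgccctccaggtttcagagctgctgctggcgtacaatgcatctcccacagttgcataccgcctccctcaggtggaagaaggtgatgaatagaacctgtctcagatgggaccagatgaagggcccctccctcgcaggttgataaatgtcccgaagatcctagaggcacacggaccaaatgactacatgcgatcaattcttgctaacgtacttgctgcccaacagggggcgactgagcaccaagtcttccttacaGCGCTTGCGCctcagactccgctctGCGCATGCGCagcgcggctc
In Ndufb2 the element TGACGTCA begins 14 bases before the start and CCAAT 79 bases before it. TGACGTCA begins 67 bases before the start used for Ndufa10, and the NRF1 letters begin 5 and 30 bases after the start of Uqcrc1. That start of Ndufa10 lies inside the gene as the RefSeq gene table bounds it (chr1:92439486-92473825). By those bounds the element is at the outer edge of the gene and not upstream of it. Ndufb2, which fell, and Ndufa10, which rose, both hold the element in their windows.

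Of the 70 windows, 4 held TGACGTCA (Ndufa10, Ndufa11, Ndufb2 and Uqcrfs1), or 5.71%, against 2.03% of the windows of all 27025 genes. The NRF1 letters were in 16 of the 70 (22.9%, against 5.19% of all genes), the ETS core CCGGAAG in 18 (25.7%, against 9.93%) and ATGGCGG, the letters of YY1, in 12 (17.1%, against 4.69%). CCAAT was about as frequent in members as in all genes (42.9% and 41.1%), and TCAAGGTCA, the letters of the oestrogen-related receptors, was in 2 windows (2.86%, against 0.466%). The 27025 genes were not selected by class or level, so they are not matched to the members. Among the 11 windows available for the members that rose in the pooled contrast, 2 held the NRF1 letters (18.2%, against 22.9% of members). Of the same 11, 3 held CCGGAAG (27.3%, against 25.7%) and 1 held TGACGTCA (9.09%, against 5.71%). CCAAT was in 3 (27.3%, against 42.9%), ATGGCGG in 2 (18.2%, against 17.1%) and TCAAGGTCA in 0 (against 2.86%). Both strands were searched, matches of different letters may overlap, and a match is a description of the sequence only.

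Apart from Ndufb2, the members that changed in the pooled contrast rose, by small amounts. Of 81 tested members 13 rose (16.0%) and 1 fell (1.23%), where 8.13% of all genes tested rose and 5.33% fell, or 13.5% in all. The median difference was 0.06 over the members and close to 0 (0.001) over all genes tested. Of the 81, 42 moved by less than 0.1 in size. By overlap of the arrays, 21 members had all 6 hairpin arrays above all 3 control arrays and 1 had them all below, where 10.7% and 6.73% of all genes did. The 13 were Ndufs8, Ndufv1, Ndufa10, Ndufa12, Ndufa8, Ndufb5, Ndufb6, Ndufb9 and Ndufc1 of complex I, Sdhb of complex II, Uqcrc1 and Uqcrc2 of complex III, and Atp5b of ATP synthase. Over 17 alternative settings, the call was lost in 14 for Ndufv1, in 13 for Atp5b and in 10 each for Ndufb5 and Sdhb. Without control replicate 1 the count of rises was 8, against 9 to 12 without any other single array. In bulk tissue, fewer cells of a type and less RNA per cell cannot be told apart, and this holds for every difference below.

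**Figure D3:**
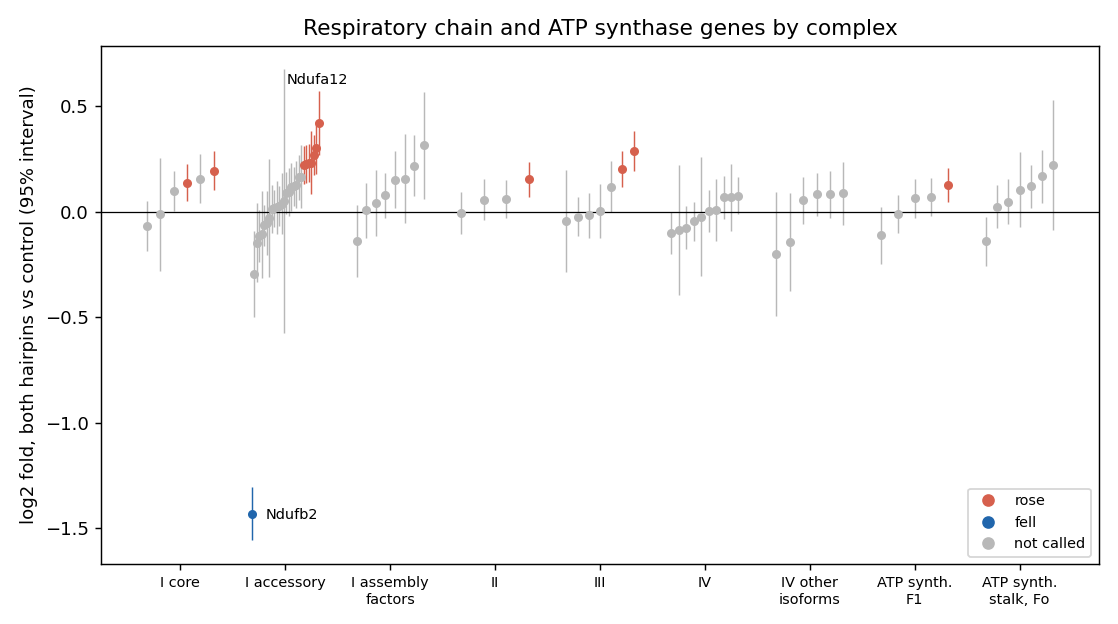
Pooled log2 difference from control (both hairpins minus control) of the 81 tested members, grouped by complex, with 95% intervals and with members that rose or fell in colour. Complex IV subunits lie around 0, and Ndufb2 is alone at -1.43.

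Of the 6 core subunits of complex I that were tested, 2 rose (33.3%, against 8.13% of all genes tested). On these few genes 0 fell, and the median difference was 0.12. Ndufs8, an iron-sulphur subunit, had 9.27, 9.28 and 9.33 in DHX9-1271, 9.34, 9.44 and 9.39 in DHX9-837, and 9.10, 9.14 and 9.20 in control. Ndufv1, the flavoprotein that takes electrons from NADH, had 9.41, 9.38 and 9.36 in DHX9-1271, 9.42, 9.50 and 9.43 in DHX9-837, and 9.26, 9.28 and 9.30 in control. For both genes the control arrays were the lowest and the groups did not overlap. The pooled difference was 0.19 for Ndufs8 (SE 0.041, adjusted p 0.016) and 0.14 for Ndufv1 (SE 0.038, adjusted p 0.0455). Ndufs1, the core subunit with several iron-sulphur clusters, was at -0.07 (adjusted p 0.43).

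Among the 28 tested accessory subunits of complex I, 7 rose, Ndufb2 fell and 20 did not pass the test, with a median of 0.07. The share called was 28.6%, against 13.5% of all genes tested. Ndufa12, the accessory subunit related in sequence to an assembly factor, showed the highest value of any member, 0.42 (SE 0.066, adjusted p 0.00478). Its levels were 10.19, 10.24 and 10.10 in DHX9-1271, 10.08, 10.15 and 10.11 in DHX9-837, and 9.56, 9.78 and 9.84 in control, so that all control arrays, though spread, lay below all hairpin arrays, while the hairpin groups overlapped with each other. Ndufa12 has a named pseudogene, so its probes may read more than 1 locus. Ndufa8 had 10.12, 10.14 and 10.21 in DHX9-1271, 10.18, 10.27 and 10.16 in DHX9-837, and 9.75, 9.93 and 9.94 in control, a pooled difference of 0.30 (SE 0.054, adjusted p 0.00817). As with Ndufa12, control replicate 1 was the lowest array.

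Ndufb9, which binds the mitochondrial acyl carrier protein, stood at 11.50, 11.56 and 11.50 in DHX9-1271, at 11.58, 11.67 and 11.53 in DHX9-837, and at 11.31, 11.26 and 11.29 in control (0.27, SE 0.043, adjusted p 0.00498). Ndufb6, a membrane-arm subunit, stood at 9.21, 9.12 and 9.16 in DHX9-1271, at 9.30, 9.33 and 9.27 in DHX9-837, and at 9.01, 9.04 and 8.96 in control (0.23, SE 0.040, adjusted p 0.00706). For both, the control arrays lay close together and below every hairpin array. Ndufa10 had 10.64, 10.62 and 10.67 in DHX9-1271, 10.72, 10.83 and 10.74 in DHX9-837, and 10.49, 10.46 and 10.48 in control (0.22, SE 0.040, adjusted p 0.00783). Ndufc1, a small membrane-arm subunit, had 10.46, 10.42 and 10.47 in DHX9-1271, 10.55, 10.59 and 10.53 in DHX9-837, and 10.24, 10.27 and 10.34 in control (0.22, SE 0.040, adjusted p 0.00826). In Ndufa10, Ndufb6 and Ndufc1 alike, the 3 DHX9-837 arrays were the highest and the 3 control arrays the lowest.

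Ndufb5 was called with a pooled difference of 0.23 (SE 0.065, adjusted p 0.0481), although its groups overlapped. It had 8.98, 9.06 and 9.06 in DHX9-1271, 9.19, 9.23 and 9.21 in DHX9-837, and 8.71, 8.92 and 9.03 in control. Only the DHX9-837 arrays were all above control. Ndufb3, another membrane-arm subunit, could hardly be assessed: its control arrays gave 4.77, 6.12 and 6.12, a control SD of 0.783, against 5.64, 5.84 and 5.54 in DHX9-1271 and 5.68, 5.68 and 5.94 in DHX9-837.

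Of the 8 assembly factors caught by the pattern, 0 rose or fell in the pooled contrast by limma, against 13.5% of all genes tested. By the same test 3 of these few genes had an unadjusted p under 0.05, and the median was 0.12. Ndufaf5 had the highest pooled value of them, 0.31 (adjusted p 0.1), and Ndufaf8 the lowest, -0.14 (adjusted p 0.253). In DHX9-837 alone, 2 of the 8 rose, Ndufaf4 and Ndufaf6 (25% of few genes, against 8.67% of all genes tested).

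In complex II, which is also succinate dehydrogenase of the citric acid cycle, 1 of 4 subunits rose. This single gene makes 25%, against 8.13% of all genes tested. Sdhb, its iron-sulphur subunit, had 9.82, 9.89 and 9.89 in DHX9-1271, 9.87, 9.84 and 9.82 in DHX9-837, and 9.67, 9.71 and 9.71 in control. All hairpin arrays were above all control arrays, and the pooled difference was 0.15 (SE 0.037, adjusted p 0.0284). Sdhc, a membrane anchor, was at -0.01 (adjusted p 0.93).

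In complex III 2 of 7 tested subunits rose (28.6% of few genes, against 8.13% of all genes tested), with a median of 0.003 over the 7. The pair were Uqcrc1 and Uqcrc2, the core proteins that face the matrix. Uqcrc1 had 11.01, 10.95 and 11.03 in DHX9-1271, 11.16, 11.16 and 11.06 in DHX9-837, and 10.74, 10.81 and 10.77 in control. Uqcrc2 had 10.55, 10.55 and 10.57 in DHX9-1271, 10.61, 10.68 and 10.64 in DHX9-837, and 10.36, 10.42 and 10.41 in control. In both genes DHX9-837 was the highest group and control the lowest, without overlap. Uqcrc1 rose by 0.29 (SE 0.042, adjusted p 0.0034) and Uqcrc2 by 0.20 (SE 0.037, adjusted p 0.00899). Uqcr11, a small subunit of the complex, was at -0.04 (adjusted p 0.821). Cyc1, the cytochrome c1 subunit of the same complex, lies outside the symbol pattern: it had 9.47, 9.40 and 9.42 in DHX9-1271, 9.49, 9.60 and 9.53 in DHX9-837, and 9.09, 9.25 and 9.25 in control (0.29, SE 0.050, adjusted p 0.00678).

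**Figure D4:**
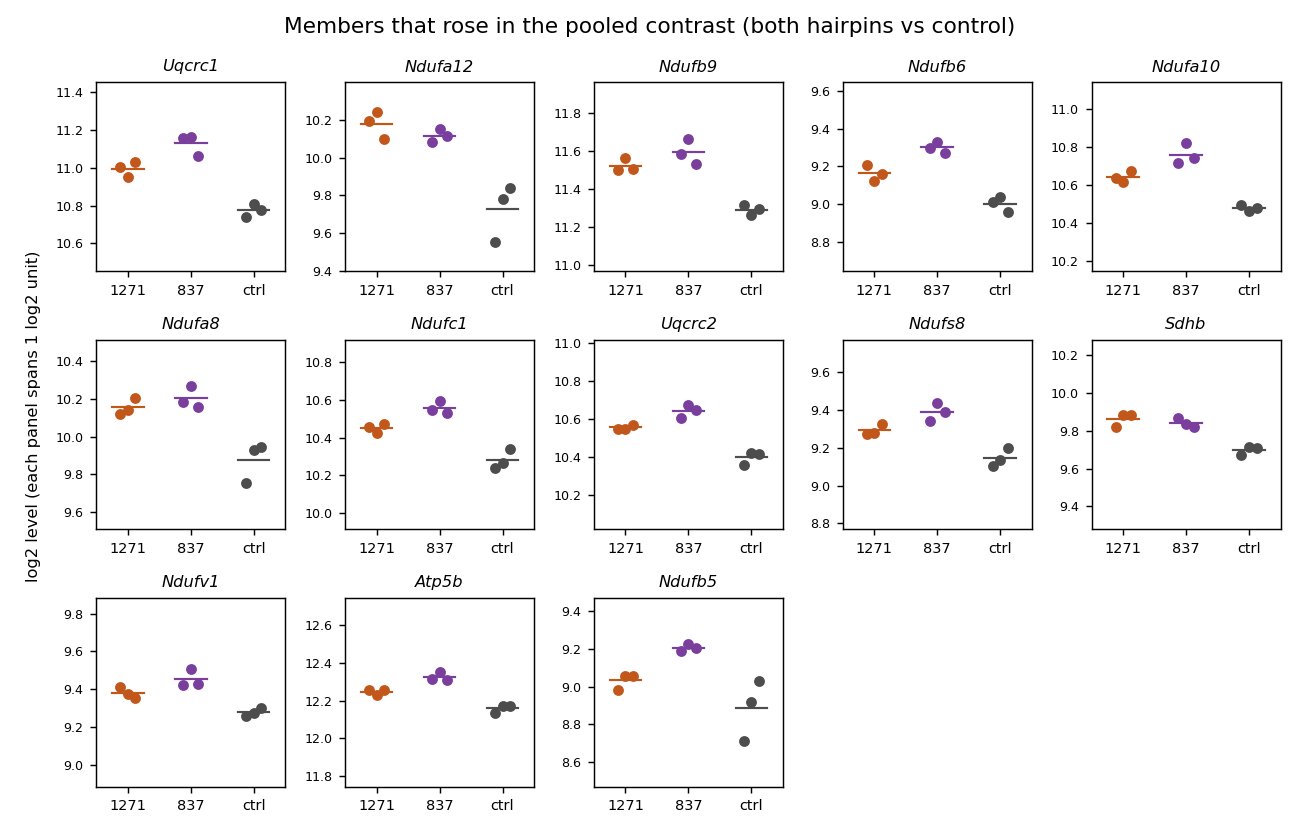
Log2 level on each array for members that rose in the pooled contrast, in 1 panel per gene with DHX9-1271 and DHX9-837 left of control; points are arrays and bars are group means. The control arrays lie below all hairpin arrays in each panel except that of Ndufb5, where they overlap with DHX9-1271.

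In complex IV, cytochrome c oxidase, 0 of 10 tested subunits rose or fell in the pooled contrast by limma, against 13.5% of all genes tested. On so few genes a count of 0 lies near that share. By the same test 1 had an unadjusted p under 0.05 (downward), and the pooled values ran from -0.10 to 0.08. Cox4i1, the main form of subunit IV, had 10.24, 10.25 and 10.27 in DHX9-1271, 10.24, 10.31 and 10.20 in DHX9-837, and 10.40, 10.26 and 10.32 in control (-0.08, adjusted p 0.298). Cox8a had 10.62, 10.61 and 10.64 in DHX9-1271, 10.66, 10.70 and 10.66 in DHX9-837, and 10.83, 10.66 and 10.75 in control (-0.10, adjusted p 0.167). In these 2 genes control replicate 1 was the highest array. Cox6a1 lay slightly to the other side, at 12.85, 12.80 and 12.82 in DHX9-1271, 12.84, 12.85 and 12.83 in DHX9-837, and 12.82, 12.72 and 12.73 in control (0.08, adjusted p 0.235). Ndufa4, named for complex I and since assigned to complex IV, was at 0.01 (adjusted p 0.964). The mean level over the complex was 8.95 to 9.01 in DHX9-1271, 8.94 to 8.996 in DHX9-837 and 8.95 to 9.01 in control.

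The tissue-restricted forms of complex IV subunits were counted apart, and 0 of 6 tested rose or fell in any contrast by limma (0 of 6 at an unadjusted p under 0.05 in the pooled contrast). Of all genes tested 13.5% were called in the pooled contrast, so 0 of so few genes lies near that share. Cox7a1, the form typical of heart and muscle, had 9.36, 9.37 and 9.44 in DHX9-1271, 9.17, 9.28 and 9.13 in DHX9-837, and 9.16, 9.19 and 9.28 in control. DHX9-1271 was above both other groups on every array, yet its difference from control (0.18, adjusted p 0.115) and that of DHX9-837 from it (-0.20, adjusted p 0.138) did not pass. The mean over 8 smooth muscle markers was 10.66 to 10.79 in DHX9-1271, 10.36 to 10.59 in DHX9-837 and 10.56 to 10.73 in control. The part of this in the values of Cox7a1 was not tested. Cox6a2 and Cox8b, also forms of striated muscle, were at -0.14 (adjusted p 0.392) and -0.20 (adjusted p 0.342), with skeletal muscle markers at a mean of 6.02 to 6.198 in DHX9-1271, 6.18 to 6.22 in DHX9-837 and 6.13 to 6.24 in control. Cox4i2, a form induced by low oxygen, was at 0.09 (adjusted p 0.42), and Cox6b2, a form of testis, at 0.05 (adjusted p 0.517). Of the widely used partners, Cox7a2 was at -0.05 (adjusted p 0.489) and Cox6b1 at 0.07 (adjusted p 0.363).

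The 4 members under the level filter were not tested. Cox7b, a small subunit of complex IV, read 5.53, 4.56 and 4.92 in DHX9-1271, 4.64, 4.83 and 4.79 in DHX9-837, and 5.28, 4.92 and 4.46 in control, and Atp5h, the d subunit of ATP synthase, 4.34, 5.17 and 5.02 in DHX9-1271, 4.88, 4.95 and 5.45 in DHX9-837, and 4.48, 4.85 and 4.92 in control. The groups overlapped in both. The testis forms Cox7b2 and Cox8c lay between 2.46 and 2.95 and between 5.04 and 5.34 over the 9 arrays.

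In ATP synthase 1 of 12 tested subunits rose (8.33%), a share near the 8.13% of all genes tested. Atp5b, the catalytic beta subunit, had 12.26, 12.23 and 12.26 in DHX9-1271, 12.31, 12.35 and 12.31 in DHX9-837, and 12.14, 12.17 and 12.17 in control. The groups did not overlap, and the pooled difference was 0.13 (SE 0.035, adjusted p 0.0456). Of the 7 tested subunits of the stalk and the membrane part, 0 passed in the pooled contrast by limma, against 13.5% of all genes tested. By the same test 3 of these few genes had an unadjusted p under 0.05. Atp5g3, which encodes a form of the rotating c subunit, had 10.71, 10.72 and 10.72 in DHX9-1271, 10.77, 10.91 and 10.74 in DHX9-837, and 10.65, 10.64 and 10.63 in control (0.12, adjusted p 0.115). Atp5k, the e subunit, lay the other way, at 10.34, 10.37 and 10.29 in DHX9-1271, 10.30, 10.47 and 10.41 in DHX9-837, and 10.46, 10.47 and 10.59 in control (-0.14, adjusted p 0.104). Atp5o, the subunit that joins the stalk to the catalytic head, had the highest pooled value of the enzyme, 0.22, but did not pass (adjusted p 0.322). Atp5k has 4 named pseudogenes, the most of any member.

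The 2 hairpins were then set side by side. Both are compared with the same 3 control arrays, so their differences from control are not independent of each other. In DHX9-1271, 4 of 81 members rose (4.94%, against 2.83% of all genes tested) and 1 fell (1.23%, against 1.58%), where 4.41% of all genes changed in either direction. In DHX9-837, 15 rose (18.5%, against 8.67% of all genes) and 2 fell (2.47%, against 6.91%), where 15.6% of all genes changed. Over the alternative settings 10 to 18 members rose in DHX9-837. The 4 rises in DHX9-1271 were Ndufa12 (0.45, adjusted p 0.0171), Ndufa8 (0.28, adjusted p 0.0438), Ndufb9 (0.23, adjusted p 0.0361) and Uqcrc1 (0.22, adjusted p 0.0408). The same 4 rose in DHX9-837, Ndufa12 by 0.39 (adjusted p 0.0102), Ndufa8 by 0.33 (adjusted p 0.00908) and Uqcrc1 by 0.35 (adjusted p 0.00202) among them. When each array was instead centred on its median, the split in DHX9-1271 was 1 rise and 1 fall (50% of calls upward, against 80.0%). Over 18 alternative settings the rise in DHX9-1271 was kept in 14 for Ndufa12, in 7 for Ndufb9, in 6 for Uqcrc1 and in 5 for Ndufa8.

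Directly between the hairpins, 0 of 81 members differed between DHX9-837 and DHX9-1271 by limma, where 1.9% of all genes tested did (0.696% higher and 1.21% lower in DHX9-837). Those shares rest on 117 and 203 genes, which became 9 and 19 without DHX9-1271 replicate 3. By the same test 10 of the 81 had an unadjusted p under 0.05. The differences ran from -0.37 to 0.24. The lowest was that of Ndufb11, the X-linked membrane-arm subunit, with 6.69, 6.53 and 6.45 in DHX9-837, 6.999, 6.84 and 6.94 in DHX9-1271, and 7.24, 7.03 and 6.84 in control. Every DHX9-837 array was below every other array, while DHX9-1271 overlapped with control. Ndufb11 fell in DHX9-837 against control (-0.48, SE 0.103, adjusted p 0.015), and DHX9-1271 was at -0.11 (adjusted p 0.597). The difference between the hairpins (-0.37, 95% interval -0.61 to -0.14) had an unadjusted p of 0.00603 and an adjusted p of 0.125.

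Among the members called in DHX9-837 and not in the pooled contrast, Ndufaf6, an assembly factor, was the highest relative to DHX9-1271. It had 6.70, 6.74 and 6.88 in DHX9-837, 6.54, 6.60 and 6.47 in DHX9-1271, and 6.39, 6.36 and 6.57 in control. The DHX9-837 arrays were the highest, with a rise of 0.34 over control (adjusted p 0.016) and a difference of 0.24 from DHX9-1271 that did not pass (adjusted p 0.163). Ndufaf4, a complex I assembly factor, had 7.71, 7.91 and 7.68 in DHX9-837, 7.56, 7.65 and 7.54 in DHX9-1271, and 7.46, 7.60 and 7.51 in control (0.24 against control, adjusted p 0.0448), and DHX9-1271 overlapped with control. Ndufa9 had 9.50, 9.58 and 9.64 in DHX9-837, 9.49, 9.50 and 9.51 in DHX9-1271, and 9.29, 9.41 and 9.42 in control (0.20 against control, adjusted p 0.0398). In Ndufa9 the DHX9-1271 arrays too were all above control, with a difference of 0.13 that did not pass. Over 18 alternative settings the call in DHX9-837 was lost in 12 for Ndufaf4, in 11 for Ndufa9 and in 2 for Ndufaf6.

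Of genes that work beside the respiratory chain, those of the citric acid cycle and pyruvate entry showed the most calls. In the pooled contrast 8 of 18 rose and 1 fell (50% called, against 13.5% of all genes tested), with a median of 0.16. The hairpins differed in their counts. In DHX9-1271, 3 rose and 1 fell (22.2%, against 4.41% of all genes). In DHX9-837, 10 rose and 1 fell (61.1%, against 15.6%). Mdh2, mitochondrial malate dehydrogenase, had 11.07, 11.07 and 11.09 in DHX9-1271, 11.19, 11.24 and 11.22 in DHX9-837, and 10.84, 10.89 and 10.91 in control (0.27, adjusted p 0.00258). Idh3a, a subunit of NAD-dependent isocitrate dehydrogenase, had 9.32, 9.43 and 9.40 in DHX9-1271, 9.49, 9.74 and 9.48 in DHX9-837, and 8.90, 9.10 and 9.01 in control (0.47, SE 0.071, adjusted p 0.00394). Both genes were lowest in control with no overlap, and the rise of Idh3a was above that of any member. Pdha1, of pyruvate dehydrogenase, rose by 0.33 (adjusted p 0.00423), and Dld, the dihydrolipoamide dehydrogenase shared by several mitochondrial complexes, by 0.24 (adjusted p 0.0046). Pcx, pyruvate carboxylase, fell, with 7.84, 7.68 and 7.77 in DHX9-1271, 7.60, 7.76 and 7.82 in DHX9-837, and 7.996, 8.11 and 8.18 in control (-0.35, SE 0.066, adjusted p 0.00954).

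Of 43 further assembly factors, 4 rose and 0 fell in the pooled contrast (9.3%, near the 8.13% of all genes that rose). Of these, Cox18 (0.26, adjusted p 0.00594) and Cox10 (0.25, adjusted p 0.00773) serve complex IV, Ecsit (0.22, adjusted p 0.00853) serves complex I, and Lrpprc (0.31, adjusted p 0.00942) stabilises mitochondrial mRNAs. Of 15 genes listed under cytochrome c and quinone synthesis, 1 rose and 2 fell. The rise was that of Cyc1, which is the complex III subunit given above and belongs to neither class. The falls were those of Coq10b (-0.34, adjusted p 0.00608) and Coq8a (-0.30, adjusted p 0.0494). Of 18 regulators of mitochondrial biogenesis, 0 rose, with 5 upward at an unadjusted p under 0.05, and 1 fell, the mitochondrial single-stranded DNA binding protein Ssbp1 (-0.33, adjusted p 0.0446). Of 18 hypoxia targets 1 rose, Ndrg1 (0.52, adjusted p 0.00295), and 1 fell, Car9 (-0.49, adjusted p 0.038). In DHX9-1271 alone 0 of these 18 were called, against 4.41% of all genes. In DHX9-837 4 rose and 1 fell (27.8%, against 15.6% of all genes). Directly between the hairpins 1 of the 18 was called (5.56%, against 1.9% of all genes). The shares called in the pooled contrast were 20.0% for cytochrome c and quinone synthesis, 5.56% for the regulators and 11.1% for the hypoxia targets. Each rests on few genes, against 13.5% of all genes. The hypoxia form Ndufa4l2, a member, was at 0.08 (adjusted p 0.279).

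**Figure D5:**
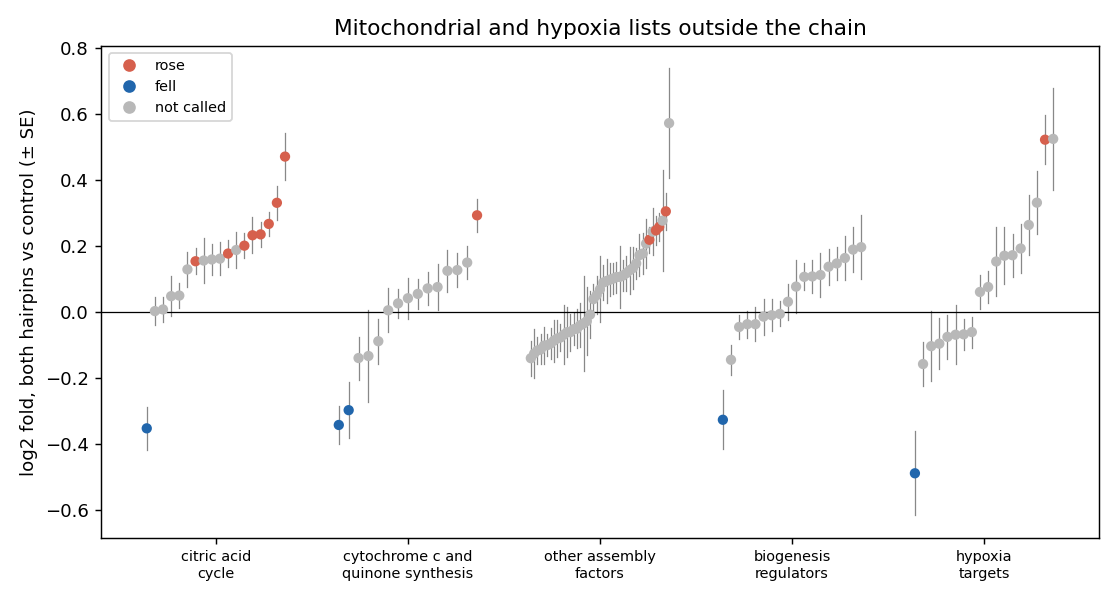
Pooled log2 difference (both hairpins minus control) of the tested genes in 5 lists outside the symbol pattern; points are genes with their SE, coloured where they rose or fell. The citric acid cycle list holds 8 of the rises and 1 fall, Pcx.

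Markers of several other cell types moved in the same comparison. Of all genes tested, 8.13% rose and 5.33% fell in the pooled contrast, and 8.67% and 6.91% in DHX9-837. Between the hairpins, 0.696% were higher and 1.21% lower in DHX9-837. The marker lists hold few genes each. Of 7 macrophage markers 5 rose, with a mean level of 7.87 to 8.04 in DHX9-1271, 8.13 to 8.17 in DHX9-837 and 7.67 to 7.76 in control. Of 7 markers of B and plasma cells 5 rose, with means of 8.04 to 8.59 in DHX9-1271, 8.15 to 8.55 in DHX9-837 and 7.73 to 7.86 in control. In both lists every hairpin array was above every control array. Of 6 endothelial markers 4 rose (7.93 to 8.03 in DHX9-1271, 7.89 to 7.94 in DHX9-837 and 7.66 to 7.76 in control), and 3 of 7 fibroblast markers rose. Among 12 epithelial markers 0 rose and 2 fell, the anion exchanger Slc26a3 (-0.45) and the enteroendocrine protein Chga (-0.33). In DHX9-837 alone 4 of the 12 fell (Slc26a3, Aqp8, Fcgbp and Chga), with a median of -0.11, and 2 were lower in DHX9-837 than in DHX9-1271 (Slc26a3 and Aqp8). Of 8 adipocyte markers 1 rose (Lpl) and 1 fell (Pck1) in the pooled contrast, 3 rose (Cidec, Fabp4 and Lpl) and 1 fell (Pck1) in DHX9-837, and 3 were higher (Fabp4, Retn and Lpl) and 1 lower (Pck1) in DHX9-837 than in DHX9-1271, with means of 7.07 to 7.197 in DHX9-1271, 7.35 to 7.45 in DHX9-837 and 7.21 to 7.48 in control. Of 8 smooth muscle markers 0 were called in the pooled contrast, and 1 was lower in DHX9-837 than in DHX9-1271. Between the hairpins their median was -0.22, and 5 had an unadjusted p under 0.05 by limma, all lower in DHX9-837. In 7 of the 8 all DHX9-837 arrays lay below all DHX9-1271 arrays, as in 12.6% of all genes tested. The mean over the respiratory chain and ATP synthase members was 8.74 to 8.75 in DHX9-1271, 8.73 to 8.80 in DHX9-837 and 8.67 to 8.74 in control. Whether the shift in these markers has a part in the rises of the subunits was not tested.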

How the data were processed

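Biotin-labelled large intestine RNA was measured on 9 arrays, in 3 groups taken from the sample titles. Per the submitters' processing notes, the authors ran RMA in R 3.1.1 (oligo 1.30.0), and the deposited values are its log2 levels. The sources used here do not give the probe set definition, genome build or RMA options. RMA as a method gives all arrays 1 distribution, which would hide a shift of most transcripts. It can also leave equal values: 28 tested members had the same value on 2 or more arrays. Of 24973 probe sets, 24015 were named through the platform table by Entrez Gene number and 958 were left unnamed. Of several probe sets for a symbol the brightest was kept, and genes with a mean level under the 30th percentile (5.28) were left out (7203 removed, 16808 tested).

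Limma 3.58.1 in R 4.3.3 fitted group means over all 9 arrays, with empirical Bayes moderation without trend (6 residual and 2.84 prior degrees of freedom). A gene was called, and is said to rise or fall, at a two-sided adjusted p under 0.05 (Benjamini-Hochberg over all genes tested), with no fold limit. The number of arrays limits the precision, and the median residual SD was 0.0913. Values in every group are given for called members; others were named as the highest or lowest of their complex or as tissue forms of a subunit, and up to 4 called genes of smallest p from each pathway list. Ndufb5, Ndufb3, Ndufa9, Ndufaf4 and Ndufaf6 were named after their values were seen, as were the epithelial and adipocyte markers. So was Pcx, the fall of the citric acid cycle list, beyond the 4 of that list. The members and lists were chosen with earlier results of these data known. Because 7 members have named pseudogenes and the probes are not described, those members are uncertain. Same-numbered arrays of different groups deviated from their group means with correlations of -0.366 to 0.261, over 0.1 in 2 of 9 pairs, so the numbers were not taken to pair samples. Alternatives covered the level filter, probe set choice, rescaling, moderation, samples in the fit, a replicate block, array weights and each array left out. Promoter windows came from RefSeq (GRCm38.p6). Figures used matplotlib 3.10.9.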

Additional observations from a re-analysis of the deposited data

Results flagged for a closer look

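Ndrg1, a stress-responsive gene and hypoxia target, differed between the hairpins. It had 10.45, 10.61 and 10.31 in DHX9-837, 9.92, 10.17 and 10.03 in DHX9-1271, and 9.73, 9.73 and 9.71 in control, and DHX9-837 exceeded DHX9-1271 by 0.42 on the log2 scale (limma, adjusted p 0.0492), with all 3 arrays of DHX9-837 above all 3 of DHX9-1271. The call is barely under the limit, and Ndrg1 itself was not followed over the alternative settings. In this contrast the 117 genes higher in DHX9-837 became 9 without DHX9-1271 replicate 3.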

How the results depend on the processing

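Ndufb2 kept its fall in all settings tried, at -1.46 to -1.40 in the pooled contrast, -1.41 to -1.31 in DHX9-1271 and -1.53 to -1.46 in DHX9-837, and no named member changed direction while called. Members that rose in DHX9-1271 numbered 4, but 1 with no level filter, 7 with the filter at the median gene, 1 with arrays centred on their medians, 9 with trend and robust moderation, 0 with only the arrays compared, and 0 to 3 leaving out 1 array. In the pooled contrast 13 rose (8 to 12 leaving out 1 array) and 1 fell, or 2 with the median filter, centring or trend and robust moderation (1 to 2 leaving out 1 array). With the median filter and with trend and robust moderation the extra fall was Ndufb11. In DHX9-837, 15 rose (10 to 14 leaving out 1 array, 10 to 18 over all settings) and 2 fell (1 to 2 leaving out 1 array). With array weights, 1 member, Ndufb11, fell between the hairpins. With the replicate number as a block, 1 member rose in DHX9-1271 and 2 fell in the pooled contrast. Of the 14 pooled calls 9 held in all 17 alternatives: Ndufb2, Ndufa10, Ndufa12, Ndufa8, Ndufb6, Ndufb9, Ndufc1, Uqcrc1 and Uqcrc2. Ndufs8 was lost in 1, Ndufb5 and Sdhb in 10, Atp5b in 13 and Ndufv1 in 14. The causes were not tested.

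Over all genes, 475 rises and 266 falls in DHX9-1271 became 207 and 129 with only its own arrays and the control arrays, 254 and 154 with no filter, 264 and 143 with the block, and as few as 77 and 51 without DHX9-1271 replicate 3. With trend and robust moderation 719 rose. In the pooled contrast 1367 rose and 896 fell, against 779 and 584 without control replicate 1. Centring gave 1111 and 1180, or 48.5% of calls upward instead of 60.4%. In DHX9-837, 1457 rises became 942 without DHX9-837 replicate 3 and 942 with only the arrays compared, where 1161 falls became 732. Between the hairpins, 117 genes higher and 203 lower in DHX9-837 became 9 and 19 without DHX9-1271 replicate 3, 18 and 37 without DHX9-1271 replicate 1, 53 and 87 with no filter, and 282 and 437 with array weights.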
